A study of Mus musculus with 6 samples.

Results

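The 10 genes described here carry out antigen presentation by major histocompatibility complex (MHC) class I molecules in the mouse. They were taken by symbol from a list of heavy chains, the light chain, the peptide transporter, its partner tapasin, interferon-inducible proteasome subunits and their transcriptional regulator. All 10 had a row among the 13069 genes of the deposited table, and all 10 passed the filter on low values that kept 12201 genes for testing, by their mean in either genotype. RNA was sequenced from neurosphere cultures of mouse glioblastoma (GBM), 3 libraries of the genotype ATRX knockout (ATRX KO) and 3 of the genotype ATRX wild type (ATRX WT). ATRX is a chromatin remodeller that deposits histone H3.3 in heterochromatin.

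Both genotypes came from tumours started in neonatal C57BL/6 or FVB mice with Sleeping Beauty transposon plasmids, which insert their cargo into the genome. In both, the plasmids carried a short hairpin against p53 (shp53) and NRAS. A further plasmid with a short hairpin against ATRX (shATRX) was present or left out, while the genotype labels speak of a knockout. Both cultures were kept in a medium for neural stem cells that held the supplements B-27 and N-2 and the growth factors FGF and EGF. A stranded mRNA library kit was applied to 4 ug of total RNA per library, and reads were paired-end and 42 nt long. All libraries of a genotype carry 1 line code, C54B for ATRX KO and C39E for ATRX WT, and the mouse strain of each line is not stated. Genotype, line and any difference in strain, including strain-specific MHC alleles, therefore cannot be told apart, and p-values reflect only how far the libraries of 1 line spread, which may be technical.

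MHC class I molecules display short peptides from inside the cell to CD8 T cells and natural killer cells. Proteins are cut by the proteasome, and interferon replaces its constitutive catalytic subunits by inducible ones. The peptides are pumped into the endoplasmic reticulum by the transporter TAP and fitted into a heavy chain paired with beta-2-microglobulin while tapasin holds the complex together. Neural cells are known for low class I levels at rest and for a strong response to interferon.

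The table held 22177228 to 32477269 reads per ATRX KO library and 34966108 to 38039847 per ATRX WT library. Values are on the log2 RPKM scale, where RPKM counts reads relative to the length of the gene and the size of the library, and levels are printed as RPKM. Atrx itself averaged 16.0 ± 1.60 RPKM in ATRX KO and 22.2 ± 0.571 RPKM in ATRX WT (SD, n = 3 each), a fall of the log2 level by 0.48 (limma adjusted p = 0.00013). Its transcript was lower but not lost, and counts per gene cannot show whether a coding change is present. The hairpin target Trp53 averaged 11.8 ± 0.559 RPKM in ATRX KO and 12.9 ± 0.198 RPKM in ATRX WT, and Nras 177 ± 4.73 RPKM in ATRX KO and 121 ± 0.835 RPKM in ATRX WT (SD, n = 3 each). Fewer cells of a type and less RNA per cell cannot be told apart in such bulk libraries.

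Markers of cell types differed between the genotypes across many genes. Of 14 tested neural stem cell and glioma markers, 13 fell and Sox9 rose. All 14 reached the level filter by their ATRX WT mean and 7 by their ATRX KO mean, so the count describes the list and supports no direction. Their summed level was 1154 to 1164 RPKM in ATRX KO and 5268 to 5393 RPKM in ATRX WT. Fabp7 had 4 reads, Ptprz1 3, Olig2 2 and Olig1 0 over the ATRX KO libraries, so these markers of the labelled cell type were near absent there. Sox2, Nes and Vim, named after their values were seen, were present at 19.8, 28.3 and 1008 RPKM in ATRX KO, against 80.4, 91.2 and 1868 RPKM in ATRX WT. Of 11 tested fibroblast and pericyte markers, 10 rose and Rgs5 fell, while 10 of the 11 reached the filter by their ATRX KO mean and 3 by their ATRX WT mean, so this count too is a description only. In all, 13 had a row, and Col1a2 and Thy1, named after their values were seen, did not pass the filter on low values. Summed levels were 1248 to 1425 RPKM in ATRX KO and 27.8 to 28.2 RPKM in ATRX WT. Col3a1, Postn, Lum and Col1a1 changed most, at 725, 210, 24.8 and 266 RPKM in ATRX KO and 0.0558, 0.0599, 0.0339 and 0.514 RPKM in ATRX WT, and Lum had 1 read over the ATRX WT libraries. Of 5 tested endothelial markers, Cdh5 (7.19 on the log2 scale), Emcn (5.41), Egfl7 (1.35) and Flt1 (0.66) rose and Esam fell (-4.28), with summed levels of 23.7 to 25.3 RPKM in ATRX KO and 6.54 to 6.95 RPKM in ATRX WT. Of these 5, 4 reached the filter by their ATRX KO mean and 3 by their ATRX WT mean. Of 29 markers of immune cells, which carry high class I levels, 5 had a row, of which Tmem119 (6.04), Cd14 (3.15), Cd68 (2.25) and Lck (0.46) rose and Klrb1c fell (-5.40). Their summed level was 37.0 to 42.5 RPKM in ATRX KO and 12.7 to 13.4 RPKM in ATRX WT, and Ptprc, Csf1r and Itgam are not analysed here. Of the 5 immune markers, 4 reached the filter by their ATRX KO mean and 3 by their ATRX WT mean. The endothelial and immune counts are therefore a description only. The part of these marker differences in the class I values was not tested.

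Here "rose" and "fell" describe ATRX KO relative to ATRX WT and are used where limma's adjusted p over all tested genes was under 0.05. By that rule 7 of the 10 genes rose and 3 fell. Across all tested genes 89.5% passed in either direction, 43.6% as higher and 45.9% as lower in ATRX KO, so passing the test does not set these genes apart. The groups of libraries did not overlap for 9 of the 10 genes, against 90.5% of all tested genes. A stricter limma test asks for a change beyond 1 on the log2 scale, and 4 of the 10 genes passed it as higher in ATRX KO, namely H2-T23, Tapbp, Nlrc5 and B2m, against 15.4% of all tested genes. The median log2 fold change of the 10 was 0.76 and their mean 0.92, beside a median of -0.02 over all tested genes.

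**Figure D1:**
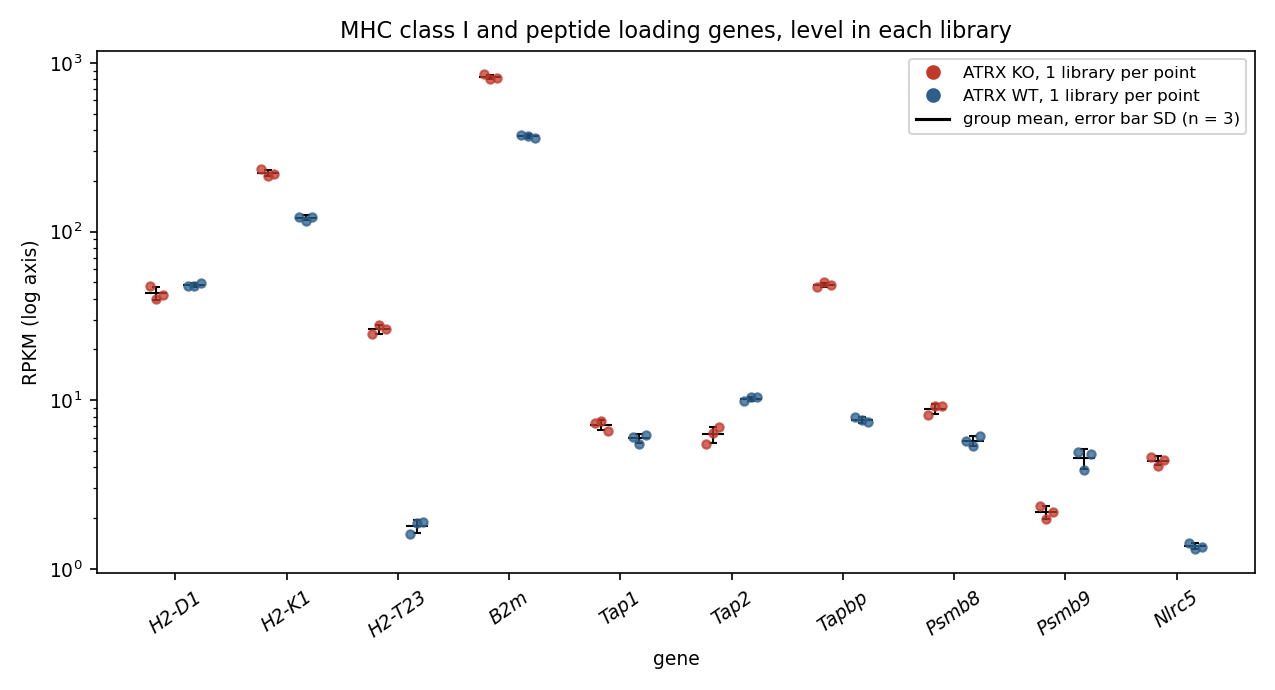
RPKM on a log axis of the 10 genes, with 1 point per library, ATRX KO in red on the left and ATRX WT in blue on the right of each gene, and a bar for the group mean with its SD. B2m is highest in both genotypes, H2-T23 and Tapbp are far higher in the ATRX KO libraries, Tap2 and Psmb9 are lower in them, and the points of H2-D1 overlap.

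The heavy chains moved apart. H2-K1 rose, H2-T23 rose most of the 10 genes, and H2-D1 fell by a small amount that did not hold in all settings. H2-K1 and H2-D1 are the classical heavy chains, which present peptides to CD8 T cells. H2-K1 lies at chr17:33996017-34000347 on the minus strand of GRCm38. It had 234, 214 and 220 RPKM in ATRX KO libraries 1 to 3, against 123, 116 and 123 RPKM in ATRX WT libraries 1 to 3. All ATRX KO libraries lay above all ATRX WT libraries. Its log2 fold change was 0.88 (SE 0.040, limma adjusted p = 4.6e-08), a 1.84-fold higher mean.

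H2-D1, at chr17:35262730-35267499 on the plus strand, had 47.5, 40.1 and 41.9 RPKM in ATRX KO, against 47.3, 47.6 and 49.7 RPKM in ATRX WT. ATRX KO library 1 lay within the range of ATRX WT, and the other two ATRX KO libraries lay below it. The log2 fold change was -0.16 (SE 0.059, limma adjusted p = 0.027). The call was present in 9 of 15 settings. It was lost without the mean-variance trend (adjusted p = 0.059) and without ATRX KO library 2, where the change was -0.11 (adjusted p = 0.082). Leaving out ATRX KO library 3 (adjusted p = 0.083) or ATRX WT library 1 (0.051), 2 (0.056) or 3 (0.097) also ended it. Scaling by reads in the table moved it to -0.36, and quantile normalization to -0.31.

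H2-T23 encodes a non-classical heavy chain that in the mouse shows leader peptides of other class I chains to the inhibitory receptor of natural killer cells. It lies at chr17:36029773-36032855 on the minus strand. Its level was 24.8, 27.9 and 26.5 RPKM in ATRX KO and 1.61, 1.86 and 1.90 RPKM in ATRX WT. These rest on 2670 reads over the ATRX KO libraries and 271 over the ATRX WT libraries. The groups lay far apart, with a log2 fold change of 3.89 (SE 0.076, limma adjusted p = 2.4e-10) and a 14.8-fold higher mean.

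Heavy chains resemble one another, so reads can be shared between them. Of all 42-base words in the annotated transcripts of H2-D1, 17.8% also occurred in another gene, with H2-K1 first at 8.34%. For H2-K1 the share was 13.6%, with H2-Q10 first at 6.59% and H2-D1 next at 6.44%. For H2-T23 it was 18.5%, with H2-T-ps first at 8.44%. The shared words of H2-D1 occurred in 522 other genes, those of H2-T23 in 447 and those of H2-K1 in 26. For H2-D1 and H2-T23 the sharing is thus not limited to heavy chains. How the counting treated shared reads is not given in the sources used here, and the values of these 3 genes are uncertain to that extent.

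B2m encodes beta-2-microglobulin, the light chain that every class I heavy chain needs to fold and reach the surface. It lies outside the MHC, at chr2:122147686-122153083 on the plus strand. It was the most abundant of the 10 in both genotypes, with 856, 805 and 818 RPKM in ATRX KO and 377, 369 and 360 RPKM in ATRX WT. The groups did not overlap. The log2 fold change was 1.16 (SE 0.036, limma adjusted p = 3.6e-09), and it was 0.71 after quantile normalization. None of its 42-base words occurred in another gene.

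The level of each heavy chain was also set against B2m in the same library, a difference that does not move with 1 scaling factor per library. These pairs were chosen after their values were seen, and the exact permutation test of 3 against 3 libraries cannot go below p = 0.1, two-sided. H2-K1 minus B2m was -1.89 ± 0.02 in ATRX KO and -1.61 ± 0.06 in ATRX WT on the log2 scale (SD, n = 3 each, exact p = 0.1). H2-D1 minus B2m was -4.26 ± 0.08 in ATRX KO and -2.94 ± 0.07 in ATRX WT (exact p = 0.1). Both classical chains were thus lower relative to B2m in ATRX KO. H2-T23 minus B2m went the other way, with -4.97 ± 0.13 in ATRX KO and -7.69 ± 0.17 in ATRX WT (exact p = 0.1). H2-K1 exceeded H2-D1 by 2.37 ± 0.06 in ATRX KO and by 1.32 ± 0.04 in ATRX WT, a ratio of 5.17 in ATRX KO and 2.5 in ATRX WT (exact p = 0.1). Quantile normalization does not scale a library by 1 factor, and with it the difference between genotypes in H2-K1 minus B2m was -0.10 in place of -0.28, while that in H2-T23 minus B2m was 3.44 in place of 2.72.

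Upstream sequence was read for 8 of the 10 genes from RefSeq promoter windows of GRCm38.p6, and Tap2 and Nlrc5 are only named. In the 250 bases before each start, both strands were searched for 6 motifs. These were the short form GAANNGAAA of the core of an interferon-stimulated response element and its 10-letter core GAAANNGAAA, which does not contain the short form. The others were the kappaB site GGGATTCCC, the gamma-activated site TTCNNNGAA, the TGACG of an X2 box and the CCAAT of a Y box. GAAANNGAAA was added after the B2m window was seen. RefSeq and GENCODE place starts differently: in the 200 bases nearest the RefSeq start, GENCODE M21 exons covered 0 bases for H2-K1, 1 for B2m, 154 for H2-T23 and all 200 for the other 5 genes, so for most of these genes the searched window is in part transcribed. The windows of H2-K1 and B2m are shown because both genes rose and neither window lies in an annotated exon. They share TGACG and CCAAT and none of the other motifs searched. Capitals mark motif matches, where ATTGG and TTTCACTTC are matches on the opposite strand. The H2-K1 window is chr17:34000348-34000547 on the minus strand and the B2m window is chr2:122147486-122147685 on the plus strand, each 200 bases read 5′ to 3′ towards the start.

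H2-K1: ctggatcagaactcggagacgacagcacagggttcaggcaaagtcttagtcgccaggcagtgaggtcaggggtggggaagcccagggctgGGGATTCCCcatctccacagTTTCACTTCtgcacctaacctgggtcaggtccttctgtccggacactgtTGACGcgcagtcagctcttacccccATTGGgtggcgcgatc

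B2m: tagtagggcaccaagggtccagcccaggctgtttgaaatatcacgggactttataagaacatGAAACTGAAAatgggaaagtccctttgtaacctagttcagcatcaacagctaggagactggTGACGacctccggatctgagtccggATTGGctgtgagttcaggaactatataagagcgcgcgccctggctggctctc

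In H2-K1 the kappaB site lay at -110 to -102 from the RefSeq start and the short form GAANNGAAA at -90 to -82. Its TGACG lay at -41 to -37 and its Y box at -16 to -12. B2m held the 10-letter core GAAANNGAAA at -139 to -130, the TGACG at -78 to -74 and the Y box at -53 to -49. The H2-D1 window held the same kappaB site, short form and TGACG as H2-K1. The upstream windows of H2-K1 and H2-D1 matched at 161 of 177 aligned bases (91.0%). The stretch from the kappaB site to the short form is printed for both, because H2-K1 rose while H2-D1 did not. It is 29 bases at chr17:34000429-34000457 on the minus strand for H2-K1 and at chr17:35262924-35262952 on the plus strand for H2-D1, with both motifs in capitals. GENCODE M21 exons cover the H2-D1 stretch and not the H2-K1 stretch.

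H2-K1 stretch: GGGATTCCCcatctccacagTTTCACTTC

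H2-D1 stretch: GGGATTCCCcatctcctcagTTTCACTTC

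They differ by 1 base, A17T from H2-K1 to H2-D1, counted from 1 at the 5′ end and outside both motifs. Over 32851 windows of the same length in RefSeq, the kappaB site occurred in 0.301%, the short form GAANNGAAA in 6.31% and GAAANNGAAA in 2.98%. TTCNNNGAA occurred in 7.02%, TGACG in 17.8% and CCAAT in 33.8%. Among the 8 windows, the kappaB site and the short form GAANNGAAA were in H2-D1 and H2-K1. The core GAAANNGAAA was in B2m and H2-T23. TTCNNNGAA was in Psmb8 alone of the 8, TGACG in 5 of the 8 (H2-D1, H2-K1, B2m, Tap1 and Psmb9) and CCAAT in 7 of the 8, all but Psmb8. Tap1 and Psmb9 are read outwards from the same stretch and share their TGACG. No motif match overlapped another. These matches are descriptions of letters in a reference of 1 strain.

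The transporter subunits moved in opposite directions. Tap1 and Tap2 encode the subunits of the TAP transporter, which pair to form the working pump. Tap1, at chr17:34187553-34197225 on the plus strand, had 7.31, 7.49 and 6.57 RPKM in ATRX KO and 6.07, 5.53 and 6.18 RPKM in ATRX WT. The groups were close and did not overlap, with a log2 fold change of 0.27 (SE 0.068, limma adjusted p = 0.0052). Scaling by reads in the table moved it to 0.07 and ended the call (adjusted p = 0.36).

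Tap2, at chr17:34203527-34216321 on the plus strand, had 5.51, 6.38 and 6.92 RPKM in ATRX KO and 9.86, 10.4 and 10.4 RPKM in ATRX WT. All ATRX KO libraries lay below all ATRX WT libraries, with a log2 fold change of -0.71 (SE 0.080, limma adjusted p = 2.6e-05). The genes Gm15821 and Gm20496 on the opposite strand cover 14.1% and 4.36% of its exonic bases in GENCODE M21, and their reads may be counted with Tap2, since the strand setting of the counting is not given in the sources used here. Tap1 exceeded Tap2 by 0.19 ± 0.24 in ATRX KO and was below it in ATRX WT, at -0.79 ± 0.11, on the log2 scale (SD, n = 3 each, exact p = 0.1, a pair chosen after its values were seen). Tap1 and Tap2 were nearly level in ATRX KO, at a ratio of 1.14, while Tap1 had 0.579 of the Tap2 level in ATRX WT.

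Tapbp encodes tapasin, which bridges TAP and the empty heavy chain and favours tightly bound peptides. It lies at chr17:33915899-33929292 on the plus strand. Its level was 46.8, 50 and 48 RPKM in ATRX KO, against 7.96, 7.61 and 7.38 RPKM in ATRX WT. The groups lay far apart, with a log2 fold change of 2.66 (SE 0.041, limma adjusted p = 6.6e-11) and a 6.31-fold higher mean. In GENCODE M21 the antisense gene Gm19412 covers 904 exonic bases of Tapbp (24.9%). Without the strand setting, reads from the opposite strand cannot be told apart from those of Tapbp.

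**Figure D2:**
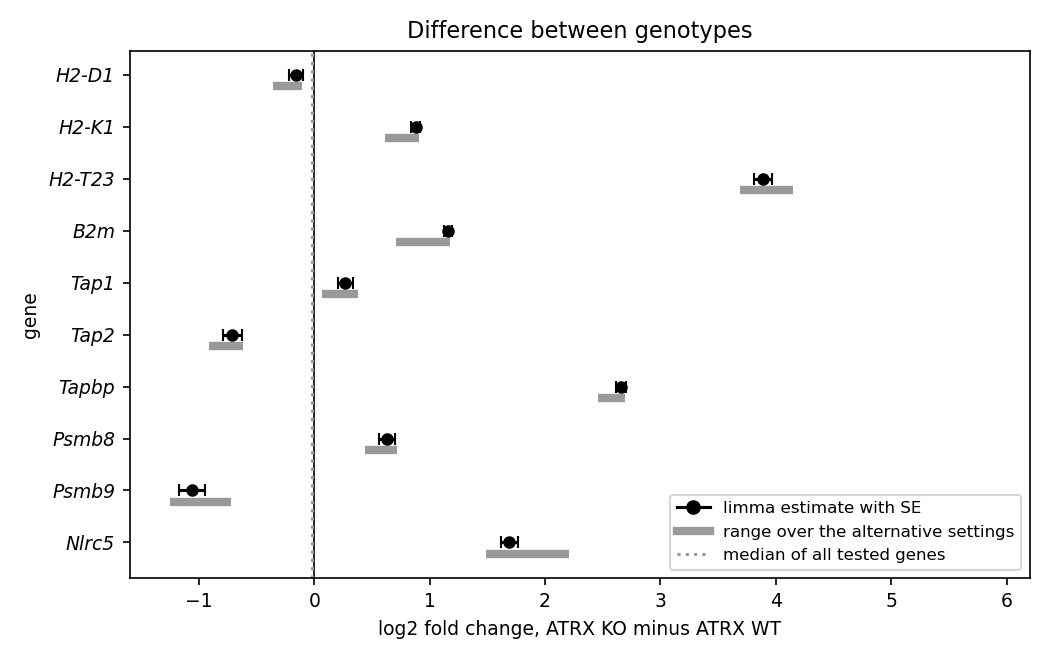
Log2 fold change of each gene, ATRX KO minus ATRX WT, as the limma estimate with its SE (black) and the range over the alternative settings (grey bar), with a dotted line at the median of all tested genes. H2-T23 at 3.89 and Tapbp at 2.66 lie farthest right, H2-D1, Tap2 and Psmb9 lie left of 0, and no grey bar crosses 0.

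The inducible proteasome subunits also moved apart. Psmb8 and Psmb9 encode catalytic subunits that interferon brings into the proteasome in place of those encoded by Psmb5 and Psmb6. Psmb8, at chr17:34197721-34201454 on the plus strand, had 8.18, 9.23 and 9.27 RPKM in ATRX KO and 5.72, 5.37 and 6.13 RPKM in ATRX WT. The groups did not overlap, and the log2 level of Psmb8 rose by 0.63 (SE 0.070, limma adjusted p = 2.4e-05). Gm20496 on the opposite strand covers 14.7% of its exonic bases, with the same limit.

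Psmb9, at chr17:34181987-34187764 on the minus strand, had 2.37, 1.97 and 2.17 RPKM in ATRX KO and 4.94, 3.83 and 4.83 RPKM in ATRX WT. It was the lowest of the 10 in ATRX KO, with 56, 40 and 35 reads per library, against 147, 123 and 152 reads in ATRX WT. The groups did not overlap, and the log2 level fell by 1.06 (SE 0.113, limma adjusted p = 1.9e-05). Psmb8 exceeded Psmb9 by 2.04 ± 0.23 in ATRX KO and 0.35 ± 0.14 in ATRX WT within a library (log2, SD, n = 3 each, exact p = 0.1, a pair chosen after its values were seen). Tap1 and Psmb9 are neighbours on opposite strands and share 212 exonic bases in GENCODE M21. Reads of that stretch cannot be told apart without the strand setting.

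Each inducible subunit was also set against the constitutive subunit whose place it takes. Psmb8 minus Psmb5 was -2.95, -2.68 and -2.63 in ATRX KO and -2.67, -2.68 and -2.63 in ATRX WT on the log2 RPKM scale. These overlapped, with a difference of -0.09 (exact permutation p = 0.4, two-sided), and it was 0.01 without ATRX KO library 1. Psmb5 had itself risen, by 0.73 (SE 0.047, limma adjusted p = 5.6e-07). Psmb9 minus Psmb6 was -6.21, -6.30 and -6.23 in ATRX KO and -5.30, -5.65 and -5.35 in ATRX WT (exact permutation p = 0.1). Psmb10, the gene of the remaining inducible subunit, went the other way against Psmb7, with -2.94, -3.02 and -2.83 in ATRX KO and -4.11, -4.14 and -4.08 in ATRX WT (exact permutation p = 0.1). The difference between genotypes was -0.82 for the Psmb9 pair and 1.18 for the Psmb10 pair. After quantile normalization it was -0.19 for the Psmb9 pair, 1.44 for the Psmb10 pair and 0.14 for the Psmb8 pair, so no direction can be given for the Psmb8 pair and the size for the Psmb9 pair rests on the normalization.

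**Figure D3:**
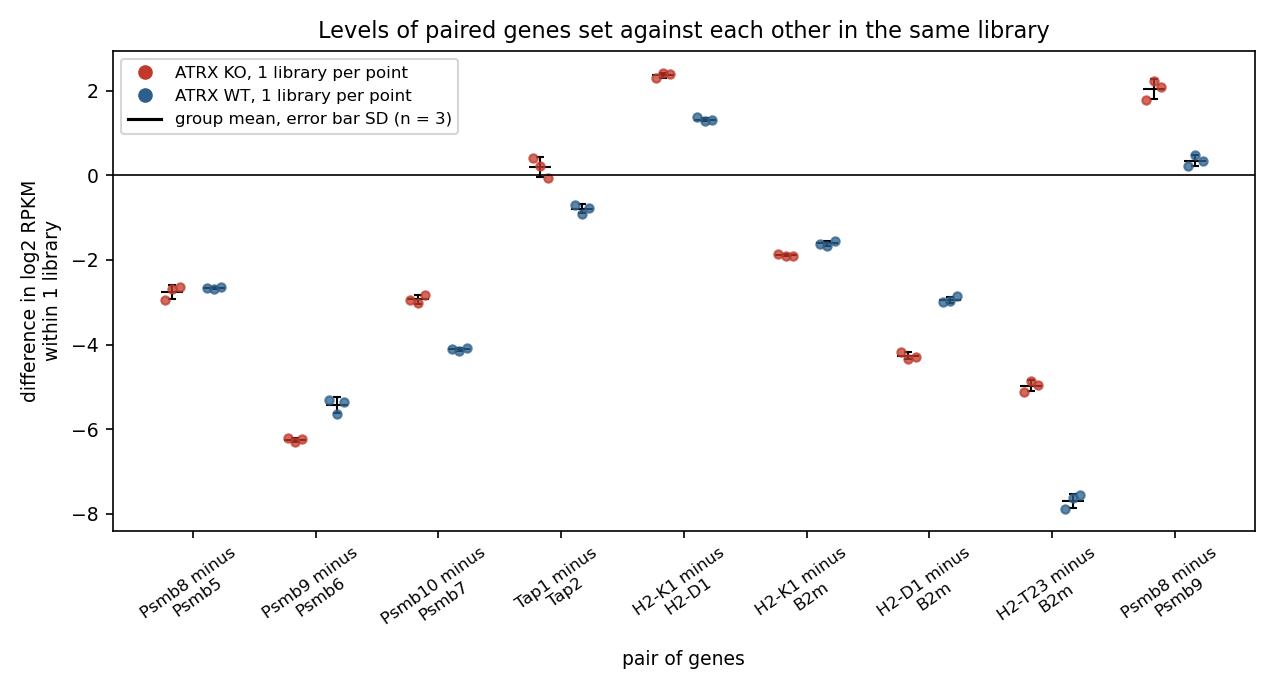
Difference in log2 RPKM between the genes of a pair within the same library, with 1 point per library, ATRX KO in red on the left and ATRX WT in blue on the right, and a bar for the group mean with its SD. The Psmb8 and Psmb5 points overlap between genotypes, while the other pairs do not overlap, as with H2-K1 minus H2-D1 at 2.37 in ATRX KO and 1.32 in ATRX WT.

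Nlrc5 encodes the regulator that enters the nucleus and switches on class I heavy chains, B2m, Tap1 and inducible proteasome genes through the X box and Y box region of their promoters. It lies at chr8:94434356-94527272. It had 4.6, 4.09 and 4.44 RPKM in ATRX KO and 1.42, 1.31 and 1.34 RPKM in ATRX WT. The groups did not overlap, with a log2 fold change of 1.69 (SE 0.074, limma adjusted p = 3.7e-08). It was the lowest of the 10 in ATRX WT.

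The order of levels per length was B2m, H2-K1, Tapbp, H2-D1, H2-T23, Psmb8, Tap1, Tap2, Nlrc5 and Psmb9 in ATRX KO. In ATRX WT it was B2m, H2-K1, H2-D1, Tap2, Tapbp, Tap1, Psmb8, Psmb9, H2-T23 and Nlrc5. Neighbours whose libraries overlapped were Tapbp and H2-D1, and Tap1 and Tap2, in ATRX KO, and Tap1 and Psmb8 in ATRX WT. Tapbp stood 3rd in ATRX KO and 5th in ATRX WT, and Tap2 stood 8th in ATRX KO and 4th in ATRX WT. The summed level of the 10 genes was 1166 to 1237 RPKM in ATRX KO and 569 to 585 RPKM in ATRX WT, most of it B2m.

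In the MHC region of chromosome 17, which holds 8 of the 10 genes within 2.12 Mb, no common direction was seen. Of 71 other tested genes between the outermost of the 8, 38 rose and 28 fell, with a median log2 fold change of 0.18 and a mean of -0.07. A list of 81 genes of the region without a known part in presentation gave 74 with a row and 68 tested, of which 40 rose and 25 fell, with a median of 0.25 that was 0.03 with scaling by reads in the table and 0.11 after quantile normalization. The largest rises were those of the calcium channel gene Itpr3 (4.30), Zfp57 (4.04), the heat shock gene Hspa1b (2.38), which can share reads with its near copy Hspa1a, and Ier3 (2.27), and the largest falls those of Atp6v1g2 (-2.18), Ddr1 (-1.80), Ppt2 (-1.45) and Prrt1, which had 2 reads over the ATRX KO libraries and 985 over the ATRX WT libraries. The median level of the 74 in a library went the other way, at 3.99 to 4.02 log2 RPKM in ATRX KO, against 4.30 to 4.34 log2 RPKM in ATRX WT, while their mean level was 3.99 to 4.04 in ATRX KO, against 3.84 to 3.87 in ATRX WT. The direction of the region thus depends on the summary.

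Set against the median level of these neighbours in the same library, Tapbp differed between genotypes by 2.98, H2-T23 by 4.20, H2-K1 by 1.20 and Psmb8 by 0.95 on the log2 scale, all higher in ATRX KO. Tap2 differed by -0.39 and Psmb9 by -0.74. Against the mean of the neighbours, H2-K1 differed by 0.73, Psmb8 by 0.48, Tap2 by -0.87 and Psmb9 by -1.21. H2-D1 differed by 0.16 against the median and by -0.32 against the mean of the neighbours, so its direction relative to the region is not settled. Tap1 differed by 0.58 against the median and by 0.11 against the mean, where the groups overlapped (exact p = 0.3). Every other exact p was 0.1, the smallest that 3 against 3 libraries allow. Tap1, Psmb9, Psmb8 and Tap2 stand side by side in this region, and Tap1 and Psmb8 rose while Psmb9 and Tap2 fell.

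**Figure D4:**
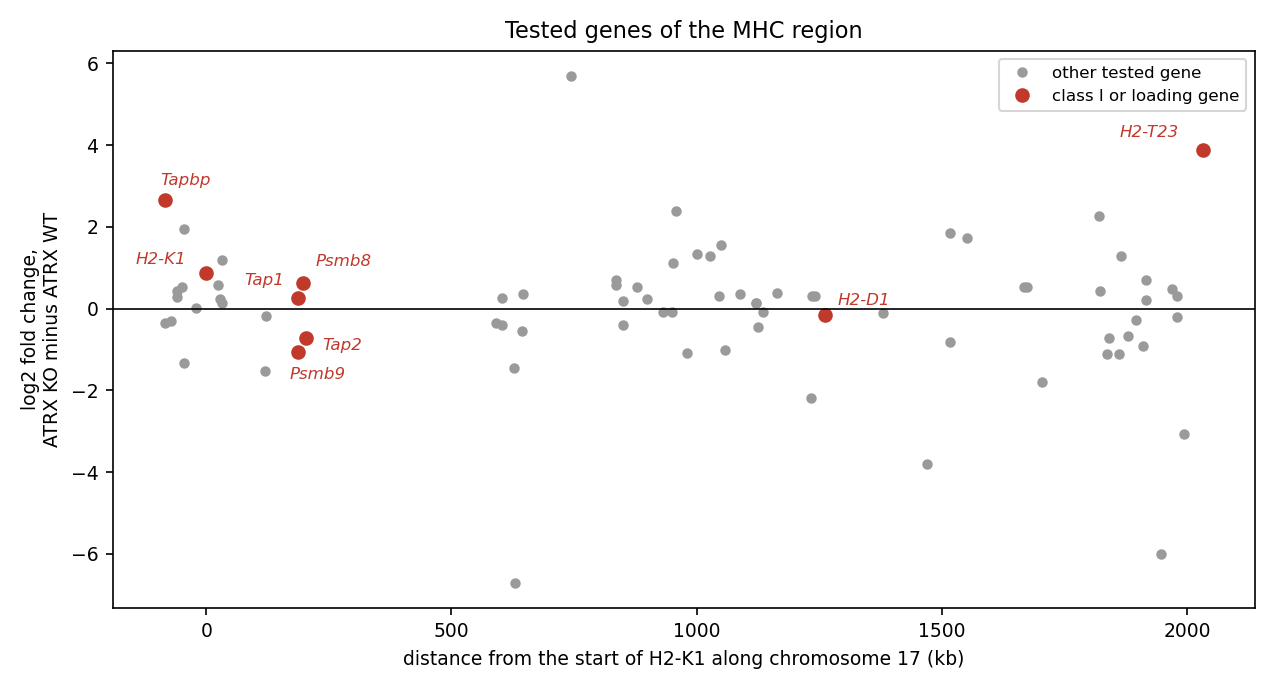
Log2 fold change, ATRX KO minus ATRX WT, of tested genes in the MHC region against their distance in kb from the start of H2-K1, with the class I and loading genes in red and other tested genes in grey. Red and grey points lie on both sides of 0, and the neighbours Tap1, Psmb8, Tap2 and Psmb9 spread from 0.63 to -1.06.

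Other class I genes were divided as well. Of 42 other heavy chains and class I-fold proteins, 15 had a row and 14 were tested, of which 6 rose and 6 fell, with a median of -0.04 that was 0.09 after quantile normalization. The largest rises were those of Fcgrt, the neonatal Fc receptor (3.87), H2-M3, which presents formylated peptides (2.15), Procr (2.04) and Raet1e, a ligand of the activating receptor NKG2D (1.98). The largest falls were those of H2-Bl (-4.28), H2-Q10 (-3.80), H2-T10 (-3.07) and the NKG2D ligand H60b (-2.97). H2-Q4 averaged 18.3 ± 1.27 RPKM in ATRX KO and 19.5 ± 1.03 RPKM in ATRX WT (SD, n = 3 each), with a log2 fold change of -0.10 that did not pass (limma adjusted p = 0.15, named after its value was seen). H2-Q10 and H2-Bl rest on 12 reads each over the ATRX KO libraries and share words with H2-K1 and H2-T23, so these values are uncertain too.

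Among other genes of the inducible proteasome, 4 of 5 tested rose and none fell, beside 43.6% higher and 45.9% lower over all tested genes. Their median of 0.40 was 0.21 with scaling by reads in the table and 0.86 after quantile normalization. Psme1 and Psme2, which form the activator cap, changed by 1.03 and 0.40, Psmb10 by 0.95 and the assembly factor Pomp by 0.14. Psme2b, a near copy of Psme2, had a log2 fold change of 0.34 that did not pass (limma adjusted p = 0.13). Of the 3 constitutive catalytic subunits, Psmb6 (-0.24) and Psmb7 (-0.23) fell and Psmb5 rose. Scaling by reads in the table shifted the median of all tested genes by -0.20, and Pomp then had -0.06 and no call (limma adjusted p = 0.085), while after quantile normalization it was lower in ATRX KO (-0.15), so its direction rests on the scaling. The falls of Psmb6 and Psmb7 were larger under both, at -0.44 and -0.43 with reads in the table.

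Chaperones, trimming enzymes and editors of loading had 13 of 21 tested genes rise and 5 fall, with a median of 0.36 that was 0.16 with scaling by reads in the table and 0.06 after quantile normalization. Tapbpl, a peptide editor related to tapasin, rose by 1.38, the chaperone Hspa5 by 1.06, the glucosyltransferase Uggt1 by 1.05 and the translocon subunit Sec61b by 0.96. The trimming peptidase Erap1, outside the 4 largest and named after its value was seen, rose by 0.80. The proteases Ide (-0.52) and Npepps (-0.38), the loading chaperone Calr (-0.32) and Sec61g (-0.26) fell. Pdia3, the disulfide isomerase of the loading complex, averaged 273 ± 12.5 RPKM in ATRX KO and 257 ± 9.76 RPKM in ATRX WT (SD, n = 3 each), with overlapping libraries and no call (limma adjusted p = 0.083, also named after its value was seen).

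Factors known to act at class I promoters had 16 of 20 tested genes rise and 3 fall, beside 43.6% higher and 45.9% lower over all tested genes. Their median of 0.70 was 0.50 with scaling by reads in the table and 0.60 after quantile normalization. With reads in the table, the rises of Rfx5, Nfyb and Creb1, named after their values were seen, were lost. They then had -0.00, 0.00 and 0.02 (limma adjusted p = 0.97, 0.91 and 0.77), and 0.21, 0.10 and 0.18 after quantile normalization. The interferon regulatory factors Irf7 (4.20) and Irf8 (2.35) and the NF-kappaB subunits Nfkb2 (3.26) and Relb (2.68) rose most. Irf7 had 13.2 ± 1.61 RPKM in ATRX KO and 0.718 ± 0.0891 RPKM in ATRX WT (SD, n = 3 each). All 20 reached the level filter by their ATRX KO mean and 19, all but Irf7, by their ATRX WT mean. The factors that fell were Rfxap (-0.60), a subunit of the X box complex that works with Nlrc5, Stat2 (-0.34) and Nfyc (-0.25), a subunit of the Y box complex.

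Interferon signalling genes had 10 of 12 tested genes rise and 1 fall, with a median of 1.42. Across all tested genes 43.6% were higher and 45.9% lower in ATRX KO. All 12 reached the level filter by their ATRX KO mean and 10 by their ATRX WT mean. The counts for these 12 are therefore a description only. The feedback inhibitors Usp18 (4.28), Socs1 (3.32) and Socs3 (2.77) and the kinase Jak1 (2.34) rose most, and the kinase Jak2 fell (-0.57). Of 32 other genes known to be induced by interferon gamma, 26 had a row and 19 were tested, of which 15 rose and 3 fell. Their median of 1.54 was 1.23 with scaling by reads in the table and 2.03 after quantile normalization. Iigp1 (6.15), Parp14 (3.69), Gbp6 (3.40) and Xaf1 (3.33) rose most, and Gbp7 (-0.74), Irgm1 (-0.66) and Samhd1 (-0.15) fell. Of these 19, all reached the level filter by their ATRX KO mean and 10 by their ATRX WT mean, so genes high in ATRX KO had entered the list more often and its counts are a description only. Among genes known to be induced by interferon, Psmb9 and Irgm1 fell while Psmb8 and Iigp1 rose, and an interferon response was not tested.

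MHC class II presentation was represented by 5 of 15 listed genes. The lysosomal protease Ctsl (3.81), the invariant chain Cd74 (3.77) and the protease Lgmn (0.64) rose, and H2-DMa, a subunit of the class II peptide editor, fell (-1.53). Ifi30, a lysosomal reductase, averaged 3.30 ± 0.0467 RPKM in ATRX KO and 3.35 ± 0.306 RPKM in ATRX WT (SD, n = 3 each) and did not pass (limma adjusted p = 0.85). Cd74 rests on 8 reads over the ATRX WT libraries. The class II chains H2-Aa, H2-Ab1 and H2-Eb1 and the regulator Ciita are not analysed here.

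**Figure D5:**
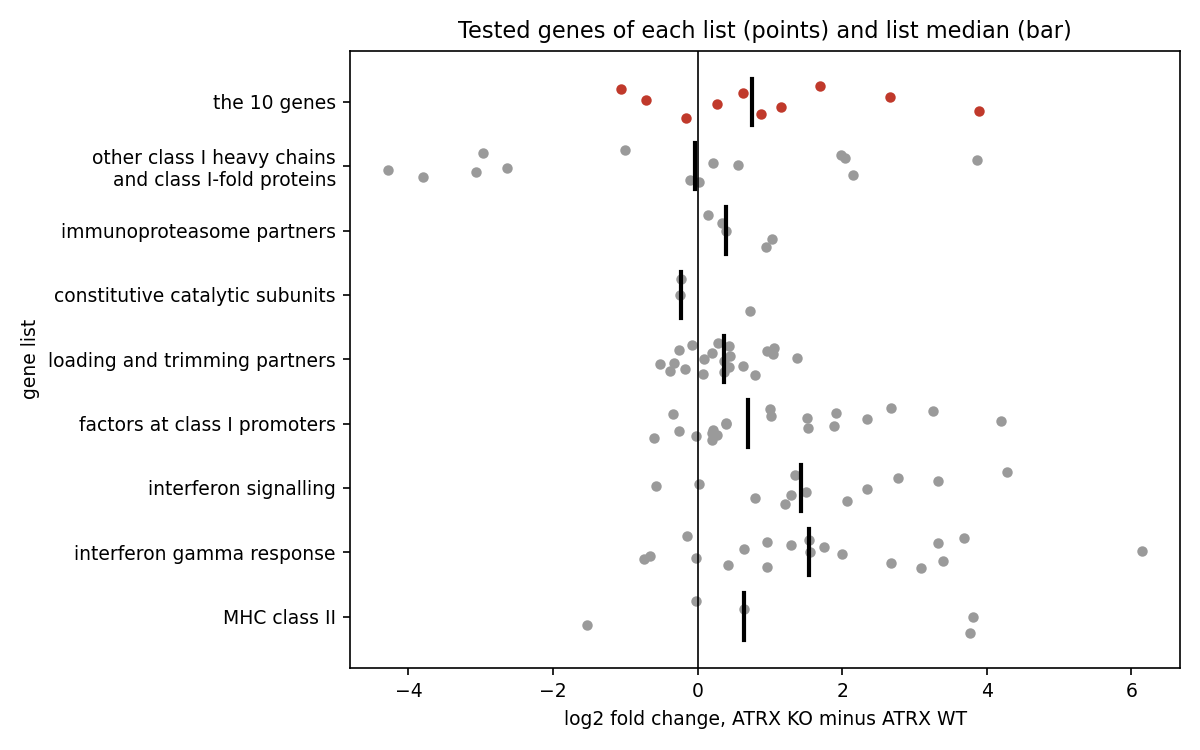
Log2 fold change, ATRX KO minus ATRX WT, of each tested gene (points) for the 10 genes and 8 lists of presentation and interferon genes, with a bar at the list median and the 10 genes in red on top. Markers of cell types and region neighbours are not plotted. The plotted list medians run from -0.23 for constitutive catalytic subunits to 1.54 for the interferon gamma response, and each list but the immunoproteasome partners holds genes below 0.

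The genes whose pattern over the 6 libraries lay nearest to the mean of the 10 were Rcl1, Plscr3, Mta1, Rnaseh2a and Impdh1. Their root mean square difference from it was 0.017 to 0.022 on the log2 scale after centring each gene. Nearest to B2m were Rpia, Ralb, Kank1, Uvrag and Lamc1, at 0.016 to 0.023. With 2 groups of libraries this likeness is largely a like difference between the genotypes, from 0.90 to 0.94 for the first set and from 1.14 to 1.20 for the second.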

How the data were processed

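The deposited table holds the authors' log2 RPKM values of 13069 genes in 6 libraries. The submitters' processing notes list FastQC and Trim Galore, the aligner STAR (2.5.3a), the counter HTSeq (0.11.2) and the package edgeR (3.20.9). The builds mm9 and mm10 are named without a role, and the strand setting is not given in the sources used here. The log2 values fell on whole-read steps with a prior of 2 reads, which returned whole reads for 100% of genes (tolerance 0.0001 reads). Relative to the reads of its column, the library size the authors scaled by was 0.9316 to 0.9354 for ATRX KO and 1.0676 to 1.073 for ATRX WT.

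The 12201 genes that reached log2 RPKM 0 in 3 or more of the 6 libraries entered a linear model in limma 3.58.1 (R 4.3.3), with empirical Bayes and a mean-variance trend, two-sided, and Benjamini-Hochberg adjustment over all tested genes at 0.05. The procedure was also run on simulated reads in which few genes changed, equally many each way. In these data 89.5% of tested genes passed, so that run does not test the scaling. A fold change is the ATRX KO mean less the ATRX WT mean. Coordinates, exons and shared words are from GENCODE M21 (GRCm38), and promoter windows from RefSeq (GRCm38.p6), aligned with Biopython 1.88.

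The 10 genes and the lists were chosen with earlier results of these data known. The text names all 10, the targeted and model genes, up to 4 genes with the largest change each way per list (all for lists of up to 7 tested), and the 5 genes nearest in pattern to the mean of the 10 and to B2m. Genes outside this rule are marked as named after their values were seen. Same-numbered libraries did not deviate together and were not paired. Alternatives covered the prior, the filter, scaling, the trend, a replicate block, a fold threshold and leaving out each library.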

Additional observations from a re-analysis of the deposited data

How the results depend on the processing

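All fold changes of the 10 genes kept their direction in 14 alternative settings, and 133 of 140 values also kept their side of the threshold. The exceptions were 6 of H2-D1 and 1 of Tap1, given above. In limma's test against a log2 fold change of 1, 3980 genes passed, 1880 higher and 2100 lower in ATRX KO. Of the 10 genes, 4 passed it, 4 as higher and 0 as lower, and 0 were lower at an unadjusted p under 0.05. Leaving out single libraries gave 10645 to 10947 calls over all genes and 9 to 10 among the 10. Scaling by reads in the table gave 4362 genes higher and 6727 lower, beside 5321 higher and 5604 lower as reported. The differences of inducible minus constitutive subunits moved by less than the spread between replicates with a prior of 0.5 reads and on leaving out single libraries. With quantile normalization, chosen after seeing the data, they were 0.14 for Psmb8 minus Psmb5, -0.19 for Psmb9 minus Psmb6 and 1.44 for Psmb10 minus Psmb7, and the cause was not tested. Replacing the median by the mean of the region's neighbours, an alternative chosen after seeing the data, kept the direction of 9 of 10 genes, all but H2-D1.

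With the replicate number as a block, 5287 genes were higher and 5564 lower, and all 10 calls held. Deviations of same-numbered libraries correlated at -0.045, 0.051 and -0.038, so the numbers are not shown to pair the libraries. Depth limits Psmb9 most, at 35 reads in 1 ATRX KO library.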
